A study of Drosophila melanogaster with 6 samples.

Results

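The cuticle protein genes of Drosophila melanogaster were examined in RNA from larval brains of alcohol-naive and alcohol-grown larvae. They were chosen by name alone, as the genes whose symbol began with Cpr and a digit, Lcp and a digit, Ccp84A, Pcp, Acp65A, Edg or Twdl. This name rule took 122 of the 17137 genes in the table of expression values, with 160 of its 36294 transcripts. All larvae were of the wild-type Canton-S strain and in the third instar, and were collected 6 days after egg-laying and frozen before their brains were dissected. Control larvae grew on standard food with water added. Alcohol-grown larvae were kept from egg-laying on food with 5% alcohol, which was topped up daily with alcohol, while the control food was not topped up. Each group held 3 pools of about 30 brains, and each pool gave 1 poly(A) library. Each brain was dissected from a whole larva, so a pool can hold RNA of tissue attached to the brain.

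Insect cuticle is a layered coat of chitin fibres and proteins that epidermal cells secrete over the body, the tracheae, the foregut and the hindgut. Most structural cuticle proteins of the Cpr and Lcp groups, and those named Ccp84A, Pcp, Acp65A and Edg, share a chitin-binding motif called the Rebers and Riddiford consensus, although Edg91 is a glycine-rich cuticle protein outside it. Proteins of the Tweedle family, named Twdl, form a separate chitin-binding family. The genes are known for being switched on and off in waves by ecdysone pulses around each molt.

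The values were FPKM, fragment coverage scaled to transcript length and to the mapped fragments of a library, summed over the transcripts of a gene. FPKM is scaled to transcript length, so levels can be set side by side between genes. The libraries of control pools 1, 2 and 3 held 3257, 4244 and 3937 megabases of aligned sequence. Those of alcohol pools 1, 2 and 3 held 2719, 4028 and 3557 megabases. Alcohol pool 1 and control pool 1, with the highest Lcp sums given below, had the least. Control pool 2, with the lowest Lcp sum, had the most. The part of depth in the cuticle values was not tested. The total FPKM of a pool was 502497 to 598978. Neuron markers summed to 316.6 to 543.5 FPKM and glia markers to 228.7 to 329.5 FPKM in every pool, so the brain label was borne out by its defining genes. Genes of other tissues were also present, above all the salivary gland glue genes, which summed to between 14100 and 55870 FPKM. Control pool 1 stood apart from the other control pools in the cuticle genes, as described below, and the fitted changes of the genes called are given with and without it. No label says whether the pools came from separate bottles of larvae, so p-values measure the spread between these pools, which may be partly technical.

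Most cuticle protein genes were at or near 0 in the larval brain. A value of 0 in every pool was listed for 26 of the 122 genes, or 21.3%, against 7.14% of all genes in the table. A further 67 genes were above 0 with a mean below 1 FPKM. The mean over the 6 pools reached 1 FPKM for 29 genes, or 23.8%, against 58.1% of all genes, and it reached 10 FPKM for 11 genes, or 9.02%, against 38.5% of all genes. Around the limit of 1 FPKM, Cpr78Ca had a mean of 1.002 FPKM, Cpr47Eb 0.999 FPKM and Cpr97Ea 0.949 FPKM. When the limit was applied to either group in place of the mean of all pools, 33 genes reached it, and the 4 added were Cpr47Eb, Cpr97Ea, Cpr65Aw and Cpr65Av.

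The name groups differed in how many of their genes were detected at that level. In the Lcp group, the larval cuticle proteins, 9 of 15 genes reached a mean of 1 FPKM and 7 reached 10 FPKM. In the Cpr group, 16 of 70 genes reached 1 FPKM and 4 reached 10 FPKM. In the Tweedle family only TwdlE and TwdlT did, of 25 genes. None of the 7 Ccp84A genes did, and the summed FPKM of that group was between 0.290 and 0.752 in every pool. Of the 3 Edg genes, named for ecdysone-dependent expression, only Edg91 did. The single Pcp gene, for a pupal cuticle protein, had a mean of 2.35 FPKM, and the single Acp65A gene, for an adult cuticle protein, was listed at 0 in every pool.

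**Figure D1:**
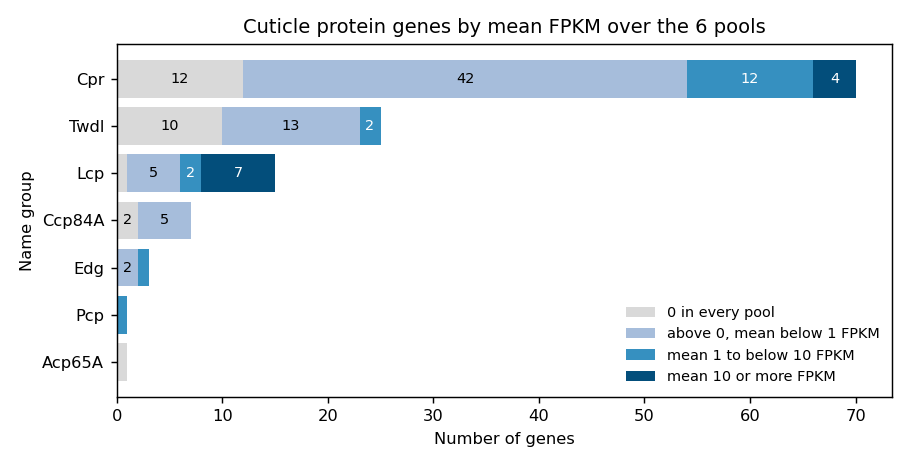
Number of cuticle protein genes at each level of mean FPKM over the 6 pools, by name group. Most Cpr and Twdl genes are at 0 or below a mean of 1 FPKM, while 9 of the 15 Lcp genes are above it.

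Many of these genes lie in tandem clusters, and expression was concentrated in a few of them. With neighbours joined where the gap was at most 30 kb, 15 clusters of 3 or more genes held 88 of the 122 genes (dm6 coordinates). The cluster of Lcp1, Lcp2, Lcp3 and Lcp4 on chromosome 2R, from 8430115 to 8438495, spans 8.4 kb, and all 4 of its genes were above 1 FPKM. The cluster of 18 Lcp65A, Cpr65A and Acp65A genes on 3L, from 6130386 to 6161589, had 5 such genes. The cluster of 8 Cpr49A genes on 2R, from 12376626 to 12415170, had 3. By contrast, the cluster of 8 Edg84A and Ccp84A genes on 3R, from 6684445 to 6704903, and the cluster of 12 Twdl genes on 3R, from 26619118 to 26641054, had 0. Within the Cpr49A cluster, Cpr49Ac had the highest mean of all cuticle genes, 119.6 FPKM, while its neighbours Cpr49Aa, Cpr49Ab and Cpr49Ad were listed at 0 in every pool.

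The groups overlapped in the summed level of all cuticle protein genes, through control pool 1. The sum was 831.2, 325.6 and 261.0 FPKM in control pools 1, 2 and 3 and 666.3, 336.6 and 462.5 FPKM in alcohol pools 1, 2 and 3. Control pool 1 was the highest and control pool 3 the lowest of the 6, so the alcohol pools lay within the control range. The means were 472.6 ± 312.2 FPKM in controls and 488.5 ± 166.4 FPKM in alcohol-grown larvae (SD, n = 3). Without control pool 1 the control mean was 293.3 FPKM, from 2 pools, and both of these pools were below every alcohol pool. Leaving out a pool from the sum was chosen after the values were seen. With alcohol pool 1 left out instead, the alcohol minus control difference of the means was -73.05 FPKM. As a share of all FPKM, the cuticle genes took 0.0519% to 0.142% in controls and 0.0664% to 0.118% in alcohol-grown larvae.

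The Lcp genes and Cpr49Ac contributed most of this sum and had different patterns over the pools. The Lcp genes summed to 387.7, 50.69 and 74.51 FPKM in control pools 1, 2 and 3 and to 409.6, 189.8 and 224.9 FPKM in alcohol pools 1, 2 and 3. Control pool 1 was thus close to the highest alcohol pool, and the other controls were below every alcohol pool. Without control pool 1, again left out after the values were seen, the control mean of the Lcp sum was 62.60 FPKM, from 2 pools. The mean in alcohol-grown larvae, with alcohol pool 1 kept, was 274.8 FPKM. The Cpr genes other than Cpr49Ac summed to 162.5, 105.9 and 75.47 FPKM in control pools 1, 2 and 3 against 162.3, 84.51 and 128.9 FPKM in alcohol pools 1, 2 and 3, and these ranges overlapped. The Twdl genes summed to 7.749 to 12.74 FPKM in controls and 6.182 to 9.716 FPKM in alcohol-grown larvae.

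**Figure D2:**
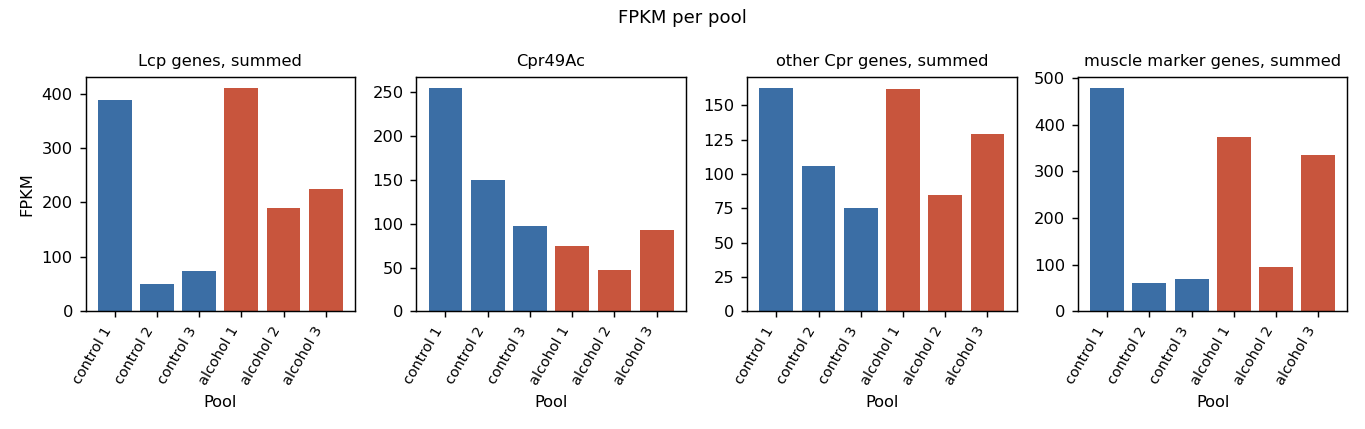
FPKM in each of the 6 pools, controls in blue and alcohol pools in red, with the vertical axis of each panel starting at 0. The Lcp sum is low in control pools 2 and 3 (50.69 and 74.51 FPKM) and high in control pool 1 and alcohol pool 1 (387.7 and 409.6 FPKM), Cpr49Ac is lower in every alcohol pool than in any control pool, and the muscle marker sum is high in control pool 1, alcohol pool 1 and alcohol pool 3.

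The summed muscle markers were lowest in control pools 2 and 3, as the summed Lcp genes were. Both sums were highest of each group in control pool 1 and alcohol pool 1. The 8 muscle genes on the marker list (Mhc, Mlc2, up, wupA, Act57B, Tm2, bt and sls) summed to 477.7, 60.80 and 68.53 FPKM in control pools 1, 2 and 3 and to 372.7, 95.10 and 335.1 FPKM in alcohol pools 1, 2 and 3. Unlike this sum, Lcp1, Lcp4, Lcp9 and Lcp65Ab2 were higher in alcohol pool 2 than in alcohol pool 3. The other Lcp genes at a mean of 1 FPKM were lower there. Of the 8 muscle genes, sls differed, with 2.235, 5.870 and 2.785 FPKM in the controls and 2.576, 1.338 and 1.437 FPKM in the alcohol pools. None of the 8 was at 0, and 3 of them, Mhc, Act57B and Tm2, were called upregulated by the test given below. The salivary gland markers summed to 14100 to 55870 FPKM in controls and 29560 to 44880 FPKM in alcohol-grown larvae, and Sgs3, Sgs5 and Sgs8 of its 6 genes were called upregulated. Markers of the trachea, a cuticle-lined tissue, summed to 182.3 to 296.1 FPKM in controls and 183.1 to 266.1 FPKM in alcohol-grown larvae, and markers of imaginal discs, which secrete cuticle later, to 44.35 to 58.84 and 49.43 to 58.94 FPKM. Of 8 trachea markers 6 were tested, and of 9 disc markers 3 (nub, rn and Doc1), and none of those tested was called. The trachea genes trh and btl and the other disc markers were not tested. The 3 muscle and 3 salivary gland calls stand against 1.18% of all genes tested, and all of them were lost without the library-size term of that test. The part of any attached tissue in the cuticle values was not tested. In pooled tissue, fewer cells of a type and less RNA per cell cannot be told apart.

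To ask which cuticle genes differed between alcohol-naive and alcohol-grown larvae, log2(FPKM + 1) was compared with limma over all genes whose FPKM had a variance above 1 across the pools. This filter passed 8247 genes, 22 of them cuticle protein genes. A member could pass it through a high value in a single pool. The fit held a term for library size, as Ballgown, the tool the study used, adds by default. It is a sum of the low and middle transcript values of a pool. A gene was called at an unadjusted p below 0.05 with a log2 fold change above 1 in size. With this rule 7 of the 22 cuticle genes were called upregulated, Lcp9, Lcp65Ab2, Lcp65Ab1, Lcp4, Lcp1, Cpr78E and Edg91, against 1.18% of all genes tested. None was called downregulated, against 0.0485% of all genes tested, also by the ordinary F-test. An unadjusted p below 0.05 was found for 8 of the 22, all with a positive log2 fold change, against 2.44% of all genes tested. The median log2 fold change of the 22 was 1.19, against -0.00046 for all genes tested, and it was positive for 18 of the 22, against 49.9% of all. This median depends on the filter, which a low gene can pass through high alcohol pools alone. With no variance filter the median was 0.169 over 96 cuticle genes, against 0.021 for all genes. Then 69 of the 96 were positive, against 57.5% of all, and 9 were called upregulated, against 98 of 15914 genes. With a mean of at least 1 FPKM as the filter, the median was 0.685 over 29 cuticle genes. No call held after adjustment over all genes, and with the variance filter the lowest Benjamini-Hochberg adjusted p among the cuticle genes was 0.50 by limma.

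Most of the calls depended on the term for library size, and 6 of the 7 were lost without it. In each of the 7 genes the groups overlapped, and control pool 1 was the highest control. It was the highest control in 19 of the 22 cuticle genes tested, against 41.8% of all genes tested. Control pool 1 also had the largest library-size value, 30450 against 28531 to 29432 in the other pools, and the treatment groups explained 40.3% of the variance of that term. Without the term, Lcp65Ab1 alone was called upregulated, against 0.546% of all genes tested, and Cpr49Ac was called downregulated, against 0.424% of all. The median log2 fold change of the 22 was then 0.38, with 14 positive. Without control pool 1 and with the term, 5 cuticle genes were called upregulated (Lcp4, Lcp9, Lcp65Ab1, Lcp65Ab2 and Cpr47Eb), against 1.47% of all genes tested in that fit, and the median over the 23 cuticle genes it tested was 0.98. With control pool 1 and alcohol pool 1 both left out and no term, an alternative chosen after the values were seen, 4 were called, Lcp4, Lcp9, Lcp65Ab1 and Lcp65Ab2, against 0.74% of all. Over all genes the split of calls was 97 up and 4 down with the term and 45 up and 35 down without it.

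**Figure D3:**
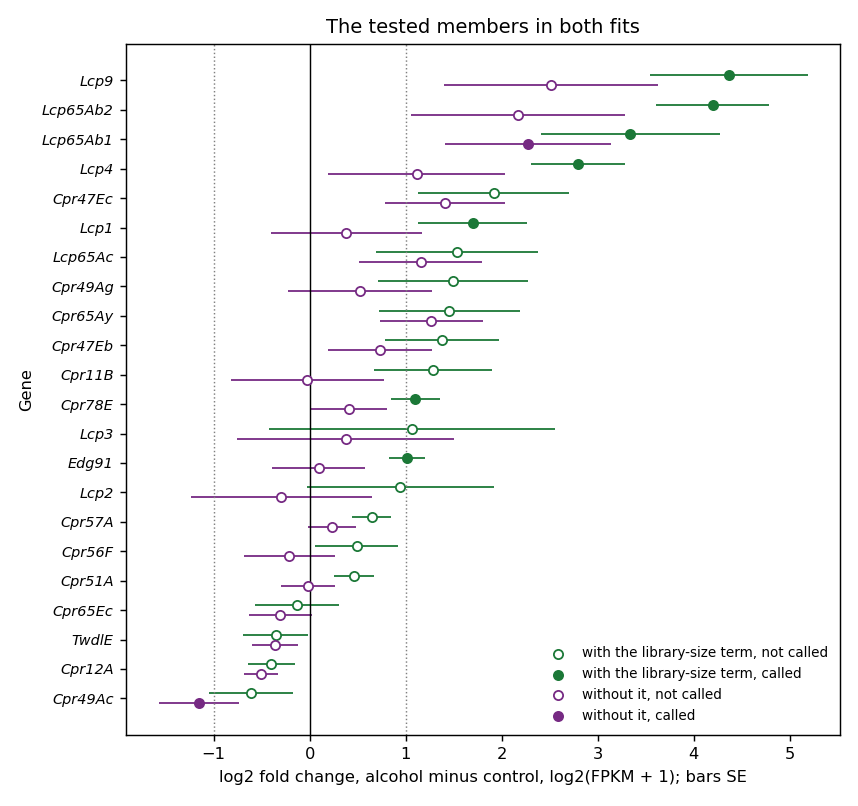
log2 fold change (alcohol minus control, on the log2(FPKM + 1) scale) with its standard error for the 22 cuticle genes tested, from the fit with the library-size term (green) and without it (purple), n = 3 pools per group. Filled points passed the call rule, 7 with the term and 2 without it, and the dotted lines mark the log2 fold change of 1 that the rule requires.

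Among the larval cuticle proteins of the Lcp1 to Lcp4 cluster, which are major structural proteins of the third-instar body wall, Lcp4 and Lcp1 were called. Lcp4 had 136.7, 13.72 and 18.34 FPKM in control pools 1, 2 and 3 and 119.4, 73.91 and 43.05 FPKM in alcohol pools 1, 2 and 3. Every alcohol pool was above control pools 2 and 3 and below control pool 1. Its log2 fold change was 2.79 (SE 0.49, adjusted p = 0.64 by limma), and 1.11 (SE 0.92) without the library-size term. It was 2.53, and still called, without control pool 1. Lcp1 had 128.8, 19.44 and 33.40 FPKM in the controls and 96.29, 65.69 and 30.14 FPKM in the alcohol pools. Alcohol pool 3 of Lcp1 was within the range of the lower controls, and the log2 fold change was 1.70 (SE 0.57, adjusted p = 0.997 by limma), falling to 0.38 (SE 0.78) without the term. Leaving out control pool 1 gave 1.52, which was not called.

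Lcp2 and Lcp3, the other genes of this cluster, were not called. Lcp3 had 49.97, 8.716 and 11.16 FPKM in control pools 1, 2 and 3 and 21.11, 5.391 and 92.29 FPKM in alcohol pools 1, 2 and 3, so that the alcohol group held both its lowest and its highest value. Lcp2 had 28.32, 4.866 and 3.807 FPKM in the controls and 11.21, 1.680 and 12.65 FPKM in the alcohol pools. Their log2 fold changes were 1.06 (SE 1.49) for Lcp3 and 0.95 (SE 0.97) for Lcp2, and that of Lcp2 turned to -0.30 (SE 0.94) without the library-size term. The 4 genes lie within 8.4 kb of each other, and alcohol pool 3 was the highest pool for Lcp3 but the lowest alcohol pool for Lcp1 and Lcp4.

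The isoforms of Lcp4 also differed in that pool. The shorter Lcp4-RB had 120.9, 11.91 and 17.33 FPKM in control pools 1, 2 and 3 and 103.1, 66.29 and 7.108 FPKM in alcohol pools 1, 2 and 3. The longer Lcp4-RA, which shares its start, had 15.87, 1.818 and 1.016 FPKM in the controls and 16.28, 7.610 and 35.95 FPKM in the alcohol pools. Lcp4-RB was the higher isoform in 5 pools, and alcohol pool 3 was the exception. In Lcp1 the shorter isoform Lcp1-RA carried most of the value in every pool, 18.56 to 123.6 FPKM against 0.779 to 5.165 FPKM for Lcp1-RB.

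Lcp9, a larval cuticle protein gene that lies alone on 2R from 24779979 to 24780428, had the largest fitted change of the cuticle genes. It had 13.48, 0.733 and 1.896 FPKM in control pools 1, 2 and 3 and 75.79, 21.59 and 6.839 FPKM in alcohol pools 1, 2 and 3. Control pool 1 was above alcohol pool 3, and every other control was below every alcohol pool. The log2 fold change was 4.37 (SE 0.83, adjusted p = 0.69 by limma), and 2.52 (SE 1.11) without the library-size term, where it was not called. It was 4.39 and called without control pool 1.

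Lcp65Ab1 and Lcp65Ab2 are near-identical copies on 3L, and the table lists a transcript of each under both positions, 6146674 to 6147089 and 6149545 to 6149960, so how the reads were split between them is uncertain. Summed over both positions, they had 26.45, 1.050 and 3.598 FPKM in control pools 1, 2 and 3 and 71.93, 18.90 and 34.07 FPKM in alcohol pools 1, 2 and 3. Alcohol pool 2 was below control pool 1, and control pools 2 and 3 were below every alcohol pool. The means were 10.4 ± 14.0 FPKM in controls and 41.6 ± 27.3 FPKM in alcohol-grown larvae (SD, n = 3). Taken as 1 gene, their log2 fold change was 4.15 (SE 0.88, adjusted p = 0.85 by limma), and the number of cuticle genes called upregulated was then 6 of 21, against 1.16% of all. Apart, the fitted values were 3.34 (SE 0.93) for Lcp65Ab1 and 4.20 (SE 0.59) for Lcp65Ab2, and 2.28 (SE 0.86) and 2.17 (SE 1.12) without the library-size term. Without control pool 1 they were 3.01 and 4.02, and both were called. Without alcohol pool 1 they were 3.06 for Lcp65Ab1, not called, and 3.84 for Lcp65Ab2, still called. The ordinary F-test also did not call Lcp65Ab1. The other genes of the 65A cluster were low: Lcp65Ac had 0.637 to 0.899 FPKM in controls and 9.529, 0.776 and 2.380 FPKM in alcohol pools 1, 2 and 3, and Cpr65Ay had 0 to 0.717 FPKM in controls and 2.108, 0.509 and 5.190 FPKM in alcohol pools. Neither was called.

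Cpr65Av, of the same cluster, was the only cuticle gene at a mean of 1 FPKM in either group with every alcohol pool above every control pool. It had 0.541, 0 and 0 FPKM in control pools 1, 2 and 3 and 1.132, 1.331 and 0.622 FPKM in alcohol pools 1, 2 and 3. Its variance was too small for the test, and the exact two-sided permutation p was 0.10, the smallest that 3 against 3 pools allow. Of all genes tested, which leave out Cpr65Av, 1.77% had every alcohol pool above every control pool. The cuticle genes tested held no such gene.

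Cpr78E and Edg91 completed the upregulated calls with smaller fitted changes. Cpr78E, a chitin-binding cuticle protein gene on 3L from 21666452 to 21666980, had 28.35, 12.60 and 9.462 FPKM in control pools 1, 2 and 3 and 22.80, 17.30 and 21.34 FPKM in alcohol pools 1, 2 and 3. The alcohol pools lay between control pool 1 and the other controls. Its log2 fold change was 1.10 (SE 0.26, adjusted p = 0.997 by limma), and 0.41 (SE 0.40) without the library-size term. Without control pool 1 it was 0.98 and not called. Edg91, on 3R from 17610856 to 17611511, had 9.825, 3.809 and 2.105 FPKM in the controls and 6.048, 5.400 and 3.363 FPKM in the alcohol pools. The alcohol pools were thus inside the control range, with group means of 5.25 and 4.94 FPKM, and the log2 fold change of 1.01 (SE 0.19, adjusted p = 0.69 by limma) was 0.09 (SE 0.48) without the term. It was 0.97 and not called without control pool 1.

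**Figure D4:**
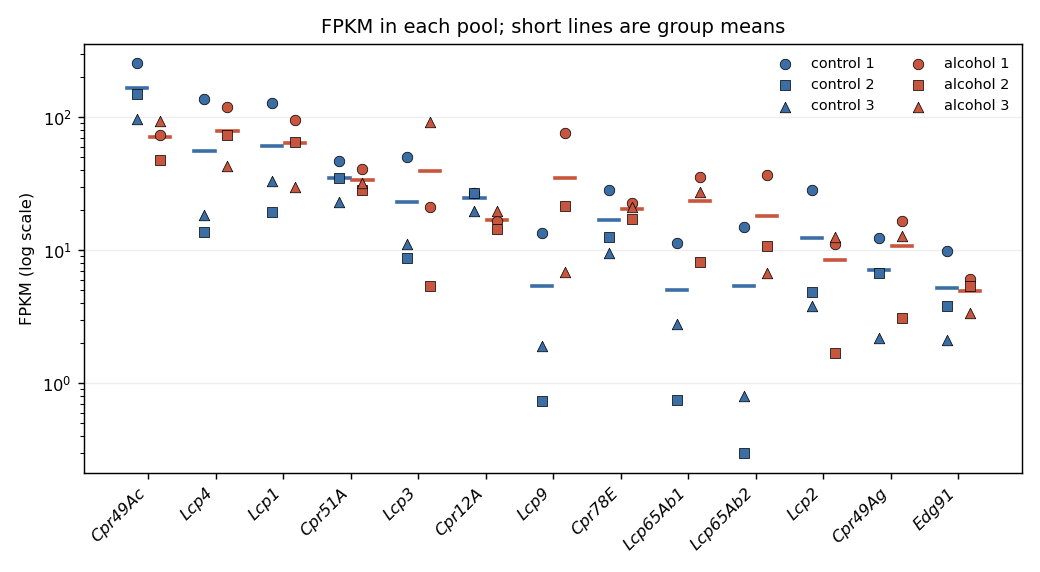
FPKM in each pool, on a log axis, for the 12 cuticle genes with the highest mean and for Edg91, with controls in blue, alcohol pools in red, a marker shape for each pool number and short lines for the group means. Control pool 1 lies above the other controls in all of these genes except Cpr12A, and the groups are apart only for Cpr49Ac and Cpr12A.

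Cpr49Ac, the cuticle gene with the highest mean, was lower in the alcohol-grown larvae. It had 254.6, 150.004 and 97.65 FPKM in control pools 1, 2 and 3 and 74.19, 47.64 and 93.27 FPKM in alcohol pools 1, 2 and 3. Every alcohol pool was below every control pool, with alcohol pool 3 and control pool 3 only 4.37 FPKM apart. The exact two-sided permutation p was 0.10, the smallest the design allows. Its log2 fold change was -0.61 (SE 0.44, adjusted p = 0.997 by limma) with the library-size term, which was not called, and -1.15 (SE 0.42) without it, which was called downregulated. With the term and without control pool 1 it was -0.72. The sign changed, to 0.16, when the replicate number and the library-size term were fitted together. The 6 fat body markers on the list are genes of larval serum and storage proteins. Their sum followed the order of Cpr49Ac over the pools except that alcohol pool 3 was above control pool 3. It was 6448, 4689 and 2123 FPKM in control pools 1, 2 and 3 and 1440, 668.8 and 3947 FPKM in alcohol pools 1, 2 and 3. Not every marker followed this order. Lsp1beta and Lsp1gamma were highest in alcohol pool 3, with 957.7 and 847.0 FPKM, against at most 950.7 and 781.8 FPKM in a control pool. Without the library-size term, Fbp1 and Fbp2 of these markers were called downregulated, with log2 fold changes of -2.395 and -1.995. The share of all genes called downregulated in that fit was 0.424%. With the term no fat body marker was called. The part of fat body tissue in the level of Cpr49Ac was not tested.

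The FPKM of Cpr49Ac came mostly from 1 of its 6 annotated isoforms. Cpr49Ac-RC had 189.7, 103.0 and 67.70 FPKM in control pools 1, 2 and 3 and 41.18, 26.51 and 65.08 FPKM in alcohol pools 1, 2 and 3, and was the highest isoform in every pool. Cpr49Ac-RF, the next, had 9.572 to 36.07 FPKM in controls and 10.27 to 16.69 FPKM in alcohol pools. Cpr49Ac-RG had 11.05 FPKM in control pool 3 and 11.38 FPKM in alcohol pool 3, and at most 0.974 FPKM in the other 4 pools. With the library-size term none of the isoforms was called. Without it Cpr49Ac-RC was called downregulated, with a log2 fold change of -1.38, against 1.32% of all transcripts tested.

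Cpr12A, a chitin-binding cuticle protein gene on X from 13543643 to 13544907, was the other tested cuticle gene with groups apart. It had 26.88, 26.88 and 19.92 FPKM in control pools 1, 2 and 3 and 16.56, 14.38 and 19.89 FPKM in alcohol pools 1, 2 and 3. Alcohol pool 3 was only 0.0304 FPKM below control pool 3. Its log2 fold change was -0.40 (SE 0.25, adjusted p = 0.997 by limma), and -0.51 (SE 0.18) without the library-size term, below the size the rule asks for. Thus 2 of the 22 cuticle genes tested had every alcohol pool below every control pool, against 4.44% of all genes tested.

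The other cuticle genes of the 12 highest did not separate the groups. Cpr51A had 46.88, 35.11 and 23.07 FPKM in control pools 1, 2 and 3 and 40.56, 28.41 and 31.96 FPKM in alcohol pools 1, 2 and 3. The fitted change of 0.47 (SE 0.21, log2) turned to -0.02 (SE 0.28) without the library-size term. Cpr49Ag had 12.46, 6.699 and 2.205 FPKM in the controls and 16.61, 3.078 and 12.80 FPKM in the alcohol pools. Its log2 fold change was 1.49 (SE 0.79), and 0.53 (SE 0.75) without the term. In both genes the groups overlapped.

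The 16 further genes at a mean of 1 FPKM or more had means of 1.002 to 6.866 FPKM. TwdlE, the highest Tweedle gene, had 6.965, 10.54 and 6.162 FPKM in control pools 1, 2 and 3 and 6.599, 4.352 and 6.578 FPKM in alcohol pools 1, 2 and 3. On the annotation, 71.9% of its exon bases lie under the opposite-strand gene lectin-28C, whose mean was 13.8 FPKM, and whether the authors' quantification used the strand of the library was not given in the sources used here. Cpr57A had 2.805 to 4.741 FPKM in controls and 3.510 to 6.156 FPKM in alcohol pools, and all its exon bases lie in an annotated transcript of the same-strand Obp57d. Pcp had 1.670 to 3.447 FPKM in controls and 1.592 to 3.361 FPKM in alcohol pools, and lies within an intron of Gart on the opposite strand. In each of these genes the groups overlapped.

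**Figure D5:**
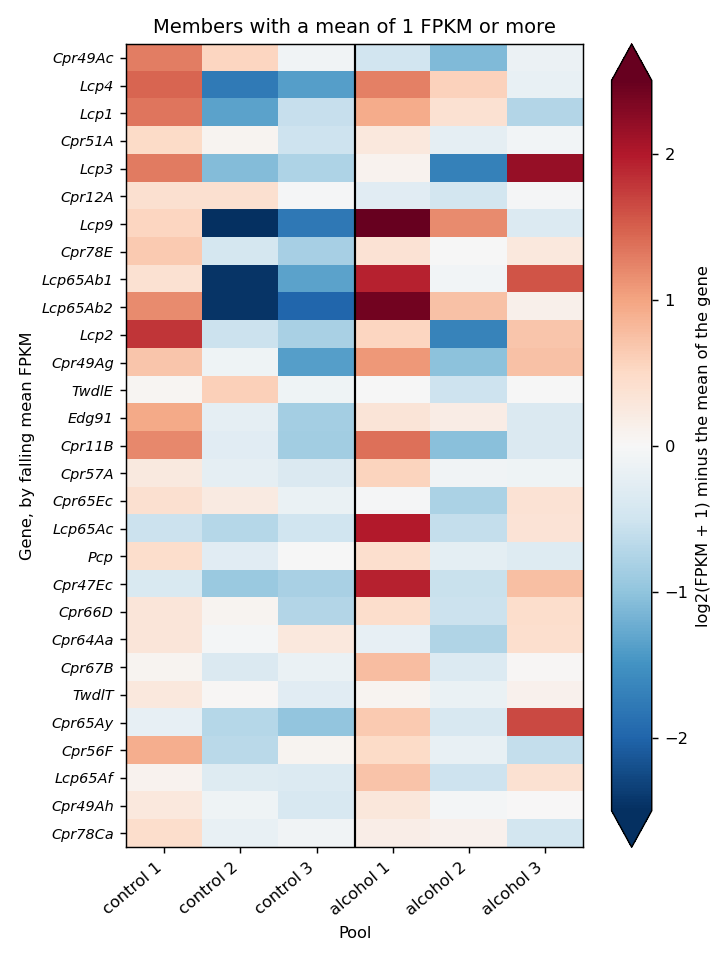
log2(FPKM + 1) of each of the 29 cuticle genes at a mean of 1 FPKM or more, minus the mean of that gene over the 6 pools, with the controls to the left of the line and the alcohol pools to the right. Red is above and blue below the mean of the gene, colours end at 2.5, and control pool 1 is the highest control in 26 of the 29 genes.

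Which pool was highest or lowest was shared by many of these genes. Among the 29 genes at a mean of 1 FPKM, control pool 1 was the highest of all pools for 12 genes and alcohol pool 1 for 11, and neither was the lowest for any. Control pool 2, control pool 3 and alcohol pool 2 were each the lowest for 9 genes. For the 9 Lcp genes at this level, alcohol pool 1 was the highest pool for 5 and control pool 1 for 3.

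At the level of transcripts, 32 cuticle transcripts passed the variance filter and 9 were called upregulated, against 2.03% of all transcripts tested. They were Lcp1-RA, Lcp4-RA, Lcp9-RA, the 4 listed transcripts of Lcp65Ab1 and Lcp65Ab2, Cpr78E-RA and Edg91-RA. Lcp4-RB, which carried more of the Lcp4 value than Lcp4-RA in most pools, was not among them. No cuticle transcript was called downregulated, against 267 of all 14645 transcripts tested. With 32 cuticle transcripts tested, this does not set them apart from that share. All 9 belong to the genes called above, and the 4 Lcp65Ab transcripts come from near-identical copies, so they are not separate evidence.

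Genes that build, bind or harden cuticle but fall outside the name rule were counted in the same fit. Of 35 tested genes for chitin synthesis, binding and turnover, 1 was called upregulated and none downregulated, with a median log2 fold change of 0.14. One gene of 35 does not set this list apart from the 1.18% of all genes called upregulated. The one called was obst-E, which encodes a chitin-binding protein that shapes the larval cuticle, with 1.389, 0.848 and 0.729 FPKM in control pools 1, 2 and 3 and 4.418, 1.230 and 2.169 FPKM in alcohol pools 1, 2 and 3. Its groups overlapped, and its log2 fold change was 1.17 (SE 0.39, adjusted p = 0.997 by limma), or 0.78 and not called without the library-size term. Idgf4, a chitinase-like growth factor gene and the highest of the list, had 92.28 to 102.7 FPKM in controls and 76.30 to 104.8 FPKM in alcohol pools.

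Among 8 tested genes for cuticle tanning, which cross-links and colours cuticle and whose enzymes Ddc and ple also make dopamine in the brain, none was called in either direction. Ddc had 7.919 to 10.90 FPKM in controls and 8.704 to 11.94 FPKM in alcohol pools. Of 14 tested genes of the ecdysone response, which times cuticle gene expression, none was called, and the median log2 fold change was -0.23, or -0.33 without the library-size term. The early gene br had 194.8 to 254.7 FPKM in controls and 141.0 to 207.5 FPKM in alcohol pools. None of 5 tested genes for zona pellucida domain proteins of the apical matrix was called. Of all genes tested, 1.18% were called upregulated and 0.0485% downregulated, so the lack of calls does not set these lists apart. Vajk2 and Vajk3, from the list of cuticle proteins of other families, had 36.17, 5.295 and 5.837 FPKM and 27.23, 2.966 and 5.498 FPKM in control pools 1, 2 and 3, and at most 12.20 FPKM in the alcohol pools. Neither was called, and control pool 1 was the highest pool for both.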

How the data were processed

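RNA of 6 pools of larval brains was analysed, 3 control and 3 alcohol, grouped by the sample labels. According to the submitters' processing notes and the study's methods, the authors trimmed reads with Trimmomatic 0.39, aligned them to dm6 with HISAT2 2.2.0 and quantified transcripts with StringTie 2.1.4. The authors deposited 1 FPKM value per transcript and pool, and the matching read coverage (signal), with no further normalization. A deposited table of the study's own comparison (fold ratio, p-value and q-value per transcript) was not used. Coverage served only to derive the aligned megabases. No read counts were analysed, so no counting error is given.

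FPKM was summed per gene name, as log2(FPKM + 1), and fitted with limma 3.58.1 in R 4.3.3 on all features with a variance above 1, with treatment and the Ballgown library-size term (the sum of log2(FPKM + 1) over nonzero values below the 75th percentile, from the transcript matrix). Python 3.11.15 with pandas 2.3.3 and scipy 1.17.1 did the rest. The fit was tested on simulated data with independent noise, where changes were given only to steady genes of higher level. This simulation did not cover low or variable genes that share a pattern over the pools. Alternatives changed the library-size term, pseudocount, filter, scaling, test, replicate block and pools used. Adjusted p-values are Benjamini-Hochberg over all features. Genes named were the 12 highest, those called, those at 1 FPKM with groups apart, and the called or up to 3 highest genes of each list, with others as ranges. All 122 genes and 155 of 160 transcripts matched the Ensembl annotation by position. The members and gene lists were chosen with earlier results of these data known. Sequences were not used here.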

Additional observations from a re-analysis of the deposited data

How the results depend on the processing

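The count of 7 cuticle genes called upregulated stood beside 97 of all 8247 genes tested. Without the library-size term it was 1, against 45 of 8247. After rescaling to a total of 1000000 (TPM) it was 2, against 73 of 10224. With quantile normalization and no term it was 3, against 62 of 8247. With the replicate block it was 4 with the term, against 363 of 8247, and 4 with no term, against 50 of 8247. Without control pool 1 and alcohol pool 1 and no term it was 4, against 56 of 7571. It was 5 to 10 when each pool was left out in turn, against 75 to 152 of all genes tested. The count of 0 called downregulated was 1, Cpr49Ac, without the term, after rescaling to TPM and with quantile normalization. Of all genes, 35 of 8247, 201 of 10224 and 42 of 8247 were called downregulated in these settings. Without any 1 pool the count was 0, against 4 to 54 of all genes tested. The 9 transcripts called stood beside 297 up and 267 down of all 14645 tested. They became 2 without the term, against 154 up and 194 down. After rescaling to TPM they were 4, against 413 up and 429 down of 18698. With quantile normalization they were 5, against 208 up and 144 down, and with the ordinary F-test 4, against 158 up and 127 down. With the replicate block and the term they were 3, against 339 up and 335 down. Without 1 pool they were 2 to 11, against 283 to 379 up and 272 to 446 down. The alcohol minus control difference in the summed FPKM of all members, 15.9, was -89.93 to 195.2 when each pool was left out, an alternative added after seeing the data. The pools shared only a replicate number, with correlations of their deviations of -0.116, -0.468 and -0.573 for the same numbers. Lcp4 and both Lcp65Ab genes were called in 14 of their 18 and 17 alternatives and Lcp9 in 15 of 18, Cpr78E in 9, Edg91 in 7 and Lcp1 in 6. The log2 fold change changed sign for Cpr49Ac (0.164) with the replicate block and the term, for Cpr51A (-0.0157) without the term, with or without the block, for Lcp3 (-0.987) and Cpr49Ag (-0.109) after rescaling to TPM, for Lcp2 without the term (-0.296, also with the block), after rescaling to TPM (-1.07) and with quantile normalization (-0.173), and for Edg91 with quantile normalization (-0.0738). The cause of these changes was not tested. With 3 pools in a group no exact p below 0.10 can be reached.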

Other observations

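Some genes that bind or modify chitin followed other pools than the summed Lcp genes did. Cda9, a chitin deacetylase gene, had 15.69, 127.7 and 48.31 FPKM in control pools 1, 2 and 3 and 73.49, 33.45 and 212.7 FPKM in alcohol pools 1, 2 and 3. The chitin-binding gene obst-J had 20.96, 121.8 and 53.18 FPKM in the controls and 51.40, 36.91 and 134.4 FPKM in the alcohol pools. Control pool 2 and alcohol pool 3 were the highest of their groups for both, as they were for the summed midgut markers, with 470.8, 2770 and 163.5 FPKM in the controls and 556.8, 38.36 and 5291 FPKM in the alcohol pools. Of the listed midgut markers, alphaTry, betaTry, thetaTry and Jon65Aiii were also highest in these pools. Amy-p, Amy-d and Jon99Ci were instead highest in control pool 1, with 6.385, 6.775 and 39.19 FPKM. The summed Lcp genes were highest in control pool 1 and alcohol pool 1. Neither Cda9 nor obst-J was called, and the part of midgut tissue in these values was not tested.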
